A study of Mus musculus with 56 samples.

Results

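Cytosolic ribosomal protein genes were examined in the kidneys of mice that were fed only in the light phase or only in the dark phase. The members were the genes with a symbol made of Rpl or Rps, a number and an optional letter, together with Rplp0, Rplp1, Rplp2 and Rpsa. Ribosomal S6 kinases, pseudogenes, paralogs with names ending in l or l1 and mitochondrial ribosomal proteins were left out. This rule found 76 of the 17027 genes in the table, 46 of the large subunit and 30 of the small subunit, on 19 chromosomes. All 76 passed the filter on low values.

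Female C57BL/6J mice, 9 weeks old, spent 7 days either with food in the light phase alone (daytime-restricted feeding, DRF) or with food in the dark phase alone (nighttime-restricted feeding, NRF), under a cycle of 12 h of light and 12 h of darkness. NRF is the reference. Zeitgeber time (ZT) counts the hours from lights on. Kidneys of 4 mice per group were collected at ZT0, 4, 8, 12, 16, 20 and 24 in both regimens, which made 14 groups, and each mouse gave 1 poly(A) RNA library. All groups shared the chow, strain, sex and light cycle, and both regimens restricted the time of feeding, so no group had food at all times. The reads recovered from the table came to 22.4 to 24.8 M per library. CPM is the unit of reads per M of the effective library size, the size that the deposited values imply. This size was 24.8 to 28.9 M and in each library exceeded the reads recovered. The 8 kidney markers, which included Umod of the thick ascending limb and Slc34a1 of the proximal tubule, summed to 11672 to 18032 CPM. The 5 adipose markers summed to 0.153 to 348 CPM with a median of 2.57, and to a mean of 39.8 CPM under NRF and 13.9 CPM under DRF. Their part in the results was not tested. Whole kidney was sequenced, so fewer cells of a type and less RNA per cell cannot be told apart.

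Ribosomal proteins join ribosomal RNA in equal amounts to build the large and the small subunit of the ribosome, and nearly every cell makes their mRNAs at high levels. Most of these mRNAs start with a C followed by a run of pyrimidines, the 5′ terminal oligopyrimidine (TOP) motif. Through this motif mTORC1, a kinase complex that senses nutrients and growth factors, controls how well they are translated, with the help of the RNA-binding protein Larp1. Poly(A) RNA levels, which are what was measured here, do not show that control.

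The start sites of some members whose values are described below are shown because the pyrimidine run of a TOP motif, where a gene has one, lies at the start. RefSeq promoters on GRCm38.p6 could be matched for 56 of the 76 members. Each line holds 15 bases before the annotated start and 15 bases from it, 5′ to 3′ on the strand of the gene, with the longest run of C and T in capitals. Rpl19 has more than 1 annotated start, and the one with the longer run is shown.
Rpl38, chr11:114668565-114668594, plus strand: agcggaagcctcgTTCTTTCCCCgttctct
Rpl19, chr11:98026909-98026938, plus strand: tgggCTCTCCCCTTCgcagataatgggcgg
Rps27, chr3:90213634-90213663, minus strand: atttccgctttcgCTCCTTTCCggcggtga
Rps18, chr17:33955651-33955680, minus strand: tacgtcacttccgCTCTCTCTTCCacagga
Rps6, chr4:86857353-86857382, minus strand: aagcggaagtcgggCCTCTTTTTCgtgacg
Rpl12, chr2:32961697-32961726, plus strand: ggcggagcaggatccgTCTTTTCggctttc
Rpl36a, chrX:134585639-134585668, plus strand: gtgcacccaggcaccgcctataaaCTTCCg
Rpl36a had a run of only 5 pyrimidines in this window, Rpl12 had one of 7, and Rpl38 and Rps6 had runs of 10. The run shown for Rpl19 lies wholly before the annotated start. A run in this window is thus not by itself a TOP motif. A run of at least 8 was found in 44.6% of the 56 members and in 13.9% of the 27025 genes with a promoter. In the whole 300 bases of a promoter, searched on both strands, the letters CCGGAAG, the core of an ETS factor site, were found in 41.1% of the members and 9.93% of all genes. The letters AAGATGG, the core of a YY1 site, were found in 16.1% and 7.28%, and the letters TATAAA in 10.7% and 15.7%. These matches are descriptions of the annotated sequence, and annotated starts can lie some bases from the starts used in kidney.

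Levels are given as CPM for the 64 members whose gene length could be checked against whole reads. For the other 12 (Rpl31, Rpl37a, Rpl34, Rps6, Rpl5, Rps16, Rplp2, Rpl29, Rpl23, Rpl27, Rps23 and Rpl37) the size of the values depends on an unchecked length, so calls and times of peaks are given and sizes are not. The 64 members had means of 63.7 to 816 CPM over the 56 libraries, or 1695 to 21701 reads. Per length of all annotated exons, as TPM (CPM divided by length and scaled to a fixed sum), the highest were Rplp1, an acidic protein of the ribosomal stalk, with 1843 TPM, Rpl23a with 1613 TPM and Rps15 with 1580 TPM. The lowest were Rps15a with 59.4 TPM, Rps20 with 97.6 TPM and Rps19 with 97.6 TPM. These 3 have long annotated exon sets, 6270, 4080 and 4685 bases, so their level per length rests on the annotation. Many processed pseudogenes carry nearly the same sequence as these mRNAs, and how the counting shared such reads is not known.

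The members moved as a block from library to library. For each member the deviation of log2(CPM + 1) from its own mean over the 56 libraries was taken, and the median over the 64 members was used to describe a library. This median ran from -0.35 in NRF ZT12 replicate 1 to 0.30 in DRF ZT4 replicate 1. In NRF ZT12 replicate 1, only 1 of the 64 members lay above its own mean, whereas in DRF ZT4 replicates 1 and 2 all 64 did. The correlation of a member with the median of the other members over the 56 libraries had a median of 0.91, and within groups it was also 0.91. Rpl3 was lowest with 0.48, followed by Rpl36 with 0.63 and Rps4x with 0.69. The summed CPM of the 64 members was taken as a share of the effective library size. This share ran from 1.47% to 2.15% under NRF with a mean of 1.77% ± 0.14 (SD, n = 28), and from 1.59% to 2.22% under DRF with a mean of 1.92% ± 0.15 (SD, n = 28). The ranges overlapped. The highest group was DRF ZT4 with 2.11% ± 0.16 (SD, n = 4) and the lowest NRF ZT0 with 1.66% ± 0.058 (SD, n = 4).

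**Figure D1:**
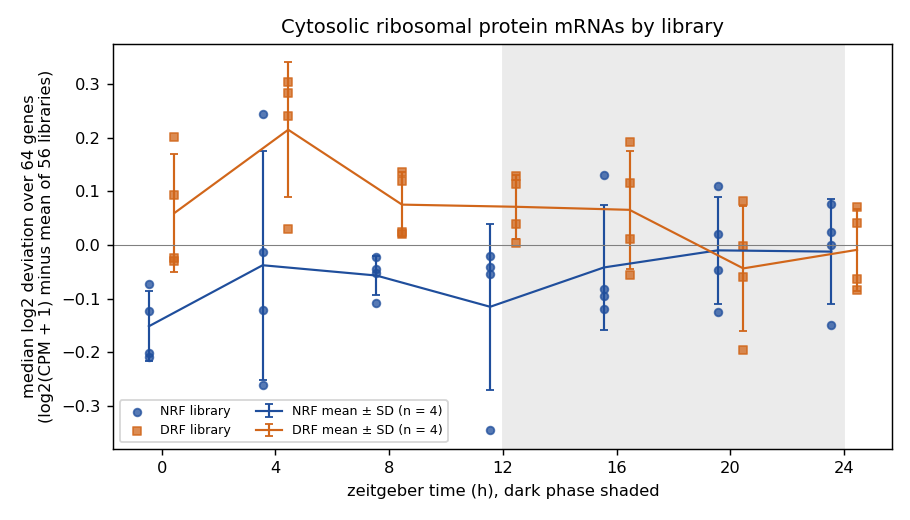
Median log2 deviation of the 64 length-checked ribosomal protein genes in each library against zeitgeber time in hours, with NRF libraries as circles, DRF libraries as squares and lines through the group means ± SD (n = 4). DRF ZT4 is the highest group, and at NRF ZT4 the 4 libraries spread from -0.26 to 0.24.

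Other short mRNAs followed the members. The typical mRNA of a member was 704 bases long at the median, against 2243 bases over the other genes tested. For 2027 genes outside the rule with an mRNA under 1000 bases, the median deviation per library was from -0.13 to 0.12, a narrower range than that of the members. It correlated with the members' median with r = 0.88 over 56 libraries, and with r = 0.89 within groups. For 1200 genes with an mRNA of 5000 bases or more, r was -0.76. These points share library, depth and base composition. The part of this movement in the results below was not tested. With the trend of each library with mRNA length and GC content removed, an alternative chosen after seeing the data, the median difference in mesor of the members, defined below, was 0.10 log2 where it had been 0.12.

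**Figure D2:**
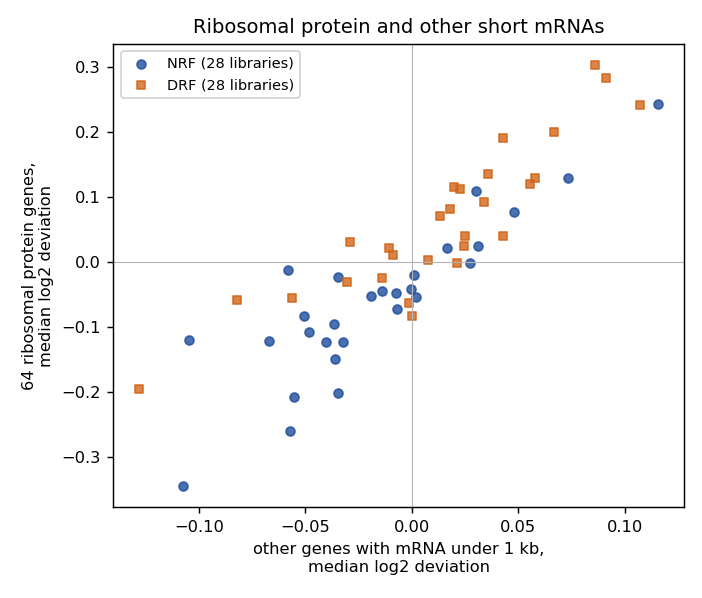
Each point is 1 of the 56 libraries, with the median log2 deviation of 2027 other genes with an mRNA under 1000 bases on the x axis and that of the 64 ribosomal protein genes on the y axis. Both rise together (r = 0.88 over the 56 libraries).

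To ask whether members oscillated under night feeding, a 24-h cosine was fitted to the 28 NRF libraries with limma and p-values were adjusted with the Benjamini-Hochberg procedure over all 12268 genes tested. Under NRF, only 2 of the 76 members had an adjusted p under 0.05, Rpl3 and Rps6, while 54.5% of all genes did. The median amplitude, the height of the cosine above its mean, was 0.04 log2 over the 64 members and 0.13 over all genes tested. Detectable rhythms were thus rare among the members under night feeding. The count was 7 members on the log2(TPM + 1) scale, for which the share of all genes is not given.

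Rpl3, a core protein of the large subunit near the peptidyl transferase centre, had an NRF amplitude of 0.15 ± 0.021 log2 (SE) and peaked at ZT9.6 ± 0.55 h (SE), with an adjusted p of 4.0e-06 (limma). Its NRF values were 383, 378, 442 and 394 CPM at ZT0 in replicates 1 to 4, 456, 503, 502 and 485 CPM at ZT12, and 414, 374, 381 and 409.8 CPM at ZT20. All NRF libraries at ZT12 were above all those at ZT0 and at ZT20. Under DRF, Rpl3 held 480.3, 474, 481 and 451 CPM at ZT0, 484, 445, 478 and 461 CPM at ZT12, and 447, 418, 443 and 435 CPM at ZT20. The adjusted p of its DRF rhythm was 0.096, and the adjusted p of the interaction of regimen with the cosine was 0.00093 (limma). At ZT0 the regimens did not overlap, and Rpl3 was higher under DRF by 0.24 ± 0.054 log2 (SE, adjusted p = 0.00088). At ZT12 the DRF minus NRF difference had the opposite sign, -0.06 log2, with an adjusted p of 0.47. Rps6, the small-subunit protein that S6 kinase phosphorylates downstream of mTORC1, was rhythmic under NRF with a peak at ZT20.8 ± 1.1 h (SE, adjusted p = 0.011), at another time of day than Rpl3. Its DRF rhythm had an adjusted p of 0.28 and its interaction an adjusted p of 0.021.

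Under DRF, 17 of the 76 members were rhythmic, 10 of the large and 7 of the small subunit, where 40.7% of all genes were. The peaks of the 17 lay between 5.65 and 10.2 h after lights on with a median of 6.56 h, in the light phase in which these mice were fed. The amplitudes of the 13 with a checked length ran from 0.08 to 0.24 log2. Among the largest of these were those of Rpl36 with 0.24 ± 0.076 log2 (SE, adjusted p = 0.040), Rps21 with 0.17 ± 0.043 (adjusted p = 0.0087), Rpl19 with 0.16 ± 0.034 (adjusted p = 0.0023) and Rpl11 with 0.14 ± 0.046 (adjusted p = 0.049). Rpl11 is the protein that, free of the ribosome, binds Mdm2 when ribosome assembly fails. In DRF libraries Rpl19 held 496, 467, 492 and 425 CPM at ZT4 and 410.0, 368, 351 and 314 CPM at ZT20, so that every ZT4 library was above every ZT20 library. Rps21 held 142, 131.0, 133 and 124 CPM at ZT4 and 104, 99.6, 97.2 and 82.7 CPM at ZT20, again without overlap. Rpl36 held 114, 72.8, 108 and 73.0 CPM at ZT4 and 59.0, 74.97, 44.2 and 49.7 CPM at ZT20, where the groups overlapped.

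The DRF count depended on single libraries. It fell to 5 without DRF ZT20 replicate 4, to 8, 9 and 8 without DRF ZT4 replicates 1, 2 and 3, to 8 without DRF ZT20 replicate 3, to 9 without DRF ZT16 replicate 1 and to 11 without DRF ZT8 replicate 2. It rose to 26 without DRF ZT4 replicate 4, to 26 without DRF ZT8 replicate 4 and to 29 without DRF ZT16 replicate 4. On the log2(TPM + 1) scale it was 28, for which the share of all genes is not given. The interaction, which tests whether the rhythm differed between regimens, passed in 9 of 76 members (49.8% of all genes): Rpl3, Rps6, Rpl18, Rpl19, Rpl27, Rps18, Rps13, Rplp2 and Rpl8. Of these, 4, Rpl18, Rpl19, Rpl27 and Rps18, were among the 17 that were rhythmic under DRF. The share of all genes with both calls was not counted. The interaction count was 27 without NRF ZT4 replicate 2, 14 without DRF ZT8 replicate 4 or DRF ZT16 replicate 4, and 4 without DRF ZT20 replicate 4 or NRF ZT20 replicate 4.

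A 12-h component was fitted beside the 24-h cosine to find members whose day differed from a single cosine. With sampling every 4 h, 1 high time point can also give such a component, so a call does not by itself show 2 high points a day. Under DRF the 12-h component passed in 17 of 76 members, against 30.7% of all genes. The fitted peaks lay between 3.2 and 4.0 h of the 12-h cycle, which is near ZT4 and, by the form of the fit, again near ZT16. The largest amplitudes were 0.15 log2 in Rps2 (adjusted p = 0.0025, limma), 0.14 in Rpl12 (adjusted p = 0.0018), 0.13 in Rpl35 (adjusted p = 0.012), 0.12 in Rps26 (adjusted p = 0.0091) and 0.12 in Rpl23a (adjusted p = 0.0039). Rps2 held 969, 1044, 1015 and 837 CPM at DRF ZT4, 902, 868, 912 and 921 CPM at DRF ZT16, and 864, 842, 684 and 671 CPM at DRF ZT20. All ZT16 libraries of Rps2 were above all ZT20 libraries. Rps26 held 241, 205, 212 and 223 CPM at DRF ZT16 and 213, 231, 227 and 193 CPM at DRF ZT8, where the groups overlapped. Only Rpl7a was among both the 17 members with a 24-h rhythm and the 17 with a 12-h component under DRF. The share of all genes with both was not counted. Under NRF no member passed, with 0 at an unadjusted p under 0.05 as well, and 1.26% of all genes passed (limma). The difference between regimens in the 12-h component was not tested. The DRF count was 6, 7 and 8 without DRF ZT4 replicates 1, 2 and 3, 7 without DRF ZT16 replicate 4, 27 without DRF ZT16 replicate 1 or DRF ZT20 replicate 1, and 35 without DRF ZT4 replicate 4.

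**Figure D3:**
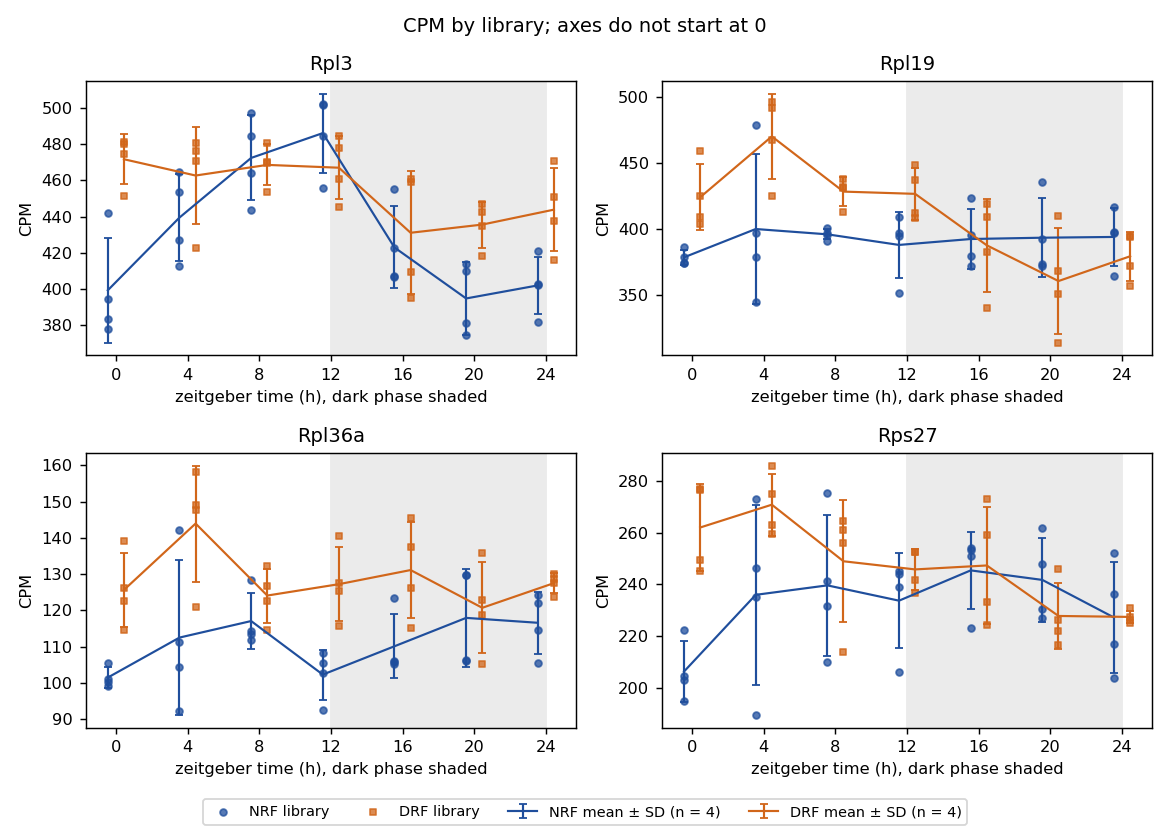
CPM of Rpl3, Rpl19, Rpl36a and Rps27 in every library against zeitgeber time in hours, NRF as circles and DRF as squares, with lines through group means ± SD (n = 4). Rpl3 peaks late in the light phase under NRF, Rpl19 is highest at DRF ZT4, and Rpl36a and Rps27 do not overlap between regimens at ZT0.

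To ask whether the level over the day depended on the time of feeding, the mesor, the mean over the 6 clock times with ZT0 and ZT24 counted as 1, was compared between regimens. The mesor was higher under DRF in 57 of 76 members and lower in none, where 9.85% of all genes passed, 5.25% higher and 4.6% lower (limma, adjusted p under 0.05). All 76 differences were above 0, and those of the 64 length-checked members ran from 0.06 to 0.21 log2 with a median of 0.12, or 1.09-fold. Over all genes tested the median was 0.00. The large subunit had 37 of 46 and the small subunit 20 of 30 members higher, with medians of 0.13 and 0.12 log2.

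The largest differences in mesor among length-checked members were those of Rpl36a with 0.21 ± 0.036 log2 (SE, adjusted p = 9.2e-05), Rps28 with 0.18 ± 0.056 (adjusted p = 0.027), Rpl24 with 0.18 ± 0.035 (adjusted p = 0.00046), Rpl38 with 0.18 ± 0.053 (adjusted p = 0.025) and Rpl23a with 0.17 ± 0.029 (adjusted p = 6.0e-05). Rpl38 is known for mutations that alter the axial skeleton of mice, as is Rpl24 for the belly spot and tail mutation. Over its 28 libraries each, Rpl36a held 92.1 CPM at the lowest, 106 at the median and 142 at the highest under NRF, and 105, 127 and 158 under DRF. Rpl24 held 205, 244 and 313 CPM under NRF and 234, 278 and 318 CPM under DRF. Both genes overlapped between regimens over all libraries.

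The count for the mesor was 45 without NRF ZT12 replicate 1 and 71 without NRF ZT4 replicate 2, the lowest and highest of all single libraries left out. It was 28 without both ZT0 groups and 63 without both ZT24 groups. The 19 members that did not pass included Rpl3, Rpl19, Rpl36, Rpsa, Rplp1, Rps2, Rps6, Rps27 and Rps29, all of them with a difference above 0. Among 2027 other genes with an mRNA under 1000 bases, 210 were higher and 75 lower, with a median of 0.03 log2. Of 1200 genes with an mRNA of 5000 bases or more, 18 were higher and 64 lower, with a median of -0.02 log2.

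**Figure D4:**
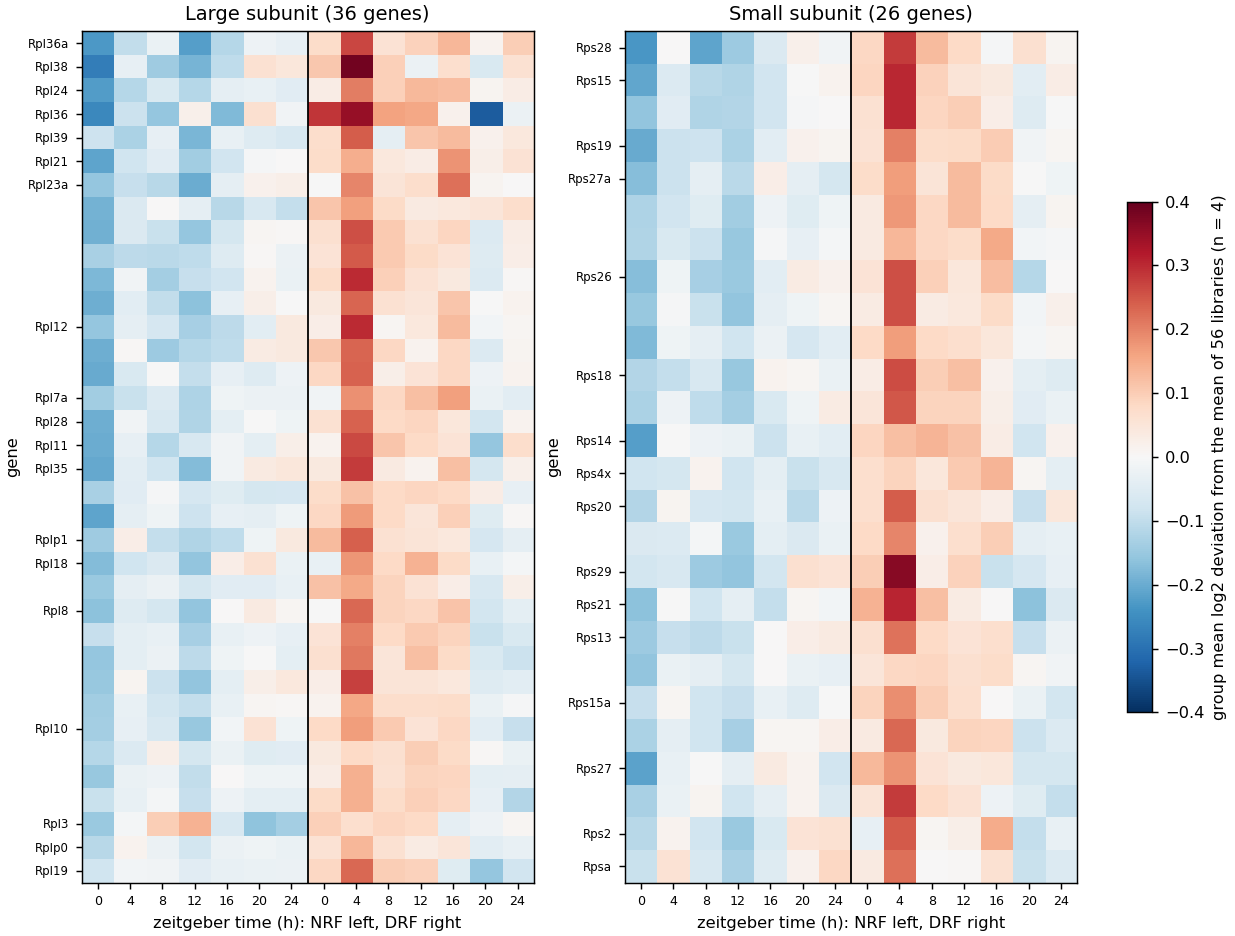
Mean log2 deviation of 36 large-subunit and 26 small-subunit genes with a checked length, labelled where the text names them, from their mean over the 56 libraries, by group (n = 4), with NRF at the left and DRF at the right of each panel and genes ordered by the mean difference between regimens. Most genes are lowest at NRF ZT0 and highest at DRF ZT4, and Rpl3 stands apart with a maximum at NRF ZT12.

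Among single time points the median difference between regimens was largest at ZT4. There, 55 of 76 members were higher under DRF and none lower, where 32.1% of all genes passed, 17.5% higher and 14.5% lower. The median over the 64 members was 0.25 log2, or 1.19-fold. The largest among length-checked members that passed were Rps29 with 0.43 ± 0.15 log2 (SE, adjusted p = 0.022), Rpl38 with 0.42 ± 0.14 (adjusted p = 0.015), Rpl39 with 0.37 ± 0.098 (adjusted p = 0.0031), Rpl36a with 0.36 ± 0.092 (adjusted p = 0.0020) and Rps18 with 0.36 ± 0.096 (adjusted p = 0.0033). Rpl38 held 76.8, 138, 101 and 87.3 CPM in NRF replicates 1 to 4 and 149, 134, 139.9 and 109 CPM in DRF replicates 1 to 4. Rpl36a held 92.1, 142, 111 and 104 CPM under NRF and 149, 148, 158 and 121 CPM under DRF. In both genes NRF replicate 2 lay inside the DRF range, and none of the 76 members was free of overlap at ZT4, where 10.7% of all genes had every DRF library above every NRF library. The median deviations of the 4 NRF ZT4 libraries were -0.26, 0.24, -0.01 and -0.12 log2, the widest of any group, and those of other short mRNAs -0.06, 0.12, -0.06 and -0.07. The SE and adjusted p given here rest on 1 spread shared by all 14 groups, so they do not measure the width of this group. Without NRF ZT4 replicate 1 the count was 11, and without replicate 2 it was 72. It was 27 without DRF ZT4 replicate 1, 33 without NRF ZT4 replicate 4 and 35 without DRF ZT4 replicate 3.

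At ZT0, 31 of 76 members were higher under DRF and none lower, where 21.1% of all genes passed, 11% higher and 10.1% lower. The median of the 64 members was 0.21 log2, and 44 members had every DRF library above every NRF library, against 11.5% of all genes. Among the largest of length-checked members that passed were Rpl36 with 0.54 ± 0.18 log2 (SE, adjusted p = 0.026), Rpl38 with 0.38 ± 0.14 (adjusted p = 0.037), Rps27 with 0.34 ± 0.082 (adjusted p = 0.0018) and Rps14 with 0.31 ± 0.099 (adjusted p = 0.020). Rps27 held 222, 195, 203 and 205 CPM under NRF and 277, 249.5, 276 and 245 CPM under DRF, without overlap. Without DRF ZT0 replicate 3 the count was 9, without NRF ZT0 replicate 1 it was 12, and without NRF ZT0 replicate 2 or DRF ZT0 replicate 1 it was 13. In the main comparison 20 members passed at both ZT0 and ZT4. The share of all genes that passed at both times was not counted, so this overlap is not weighed.

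ZT24 is the same clock time as ZT0, and there no member passed. The median was 0.00 log2, the values ran from -0.14 to 0.16 log2 with a median SE of 0.084, and 3 members had an unadjusted p under 0.05, where 17.4% of all genes passed, 8.44% higher and 8.97% lower (limma). Rps27 held 236.1, 252, 217 and 204 CPM at NRF ZT24 and 226, 228, 231 and 225 CPM at DRF ZT24, with the DRF values inside the NRF range. The column of 1 NRF ZT24 library carries a number that no sample label has. Its name gives the regimen and time, so it was used as an unnumbered library of that group, but its link to a labelled sample is uncertain. The ZT24 count was 1 without DRF ZT24 replicate 4, NRF ZT0 replicate 3, NRF ZT24 replicate 2 or that library. The difference between the ZT24 and ZT0 effects, tested after seeing the data, passed in no member (limma, 20 at an unadjusted p under 0.05), with a median of -0.22 log2 and a smallest adjusted p of 0.9997. Under NRF the members were higher at ZT24 than at ZT0 by a median of 0.15 log2, with 0 passing and 22 at an unadjusted p under 0.05 (smallest adjusted p 0.27). Under DRF the median was -0.07 log2, with 0 passing and 5 at an unadjusted p under 0.05 (smallest adjusted p 0.799). Over all genes 0.611% passed under NRF, 0.285% higher and 0.326% lower, and 0% under DRF. For ZT24 against ZT0 within a regimen, the share of all genes at an unadjusted p under 0.05 was not counted.

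At ZT12, 23 of 76 members were higher under DRF, where 24.2% of all genes passed, 13.2% higher and 11.1% lower, and the median was 0.18 log2. The largest among length-checked members that passed were Rpl36a with 0.31 ± 0.092 log2 (SE, adjusted p = 0.011), Rpl18 with 0.30 ± 0.081 (adjusted p = 0.0052), Rpl39 with 0.29 ± 0.098 (adjusted p = 0.023), Rps18 with 0.27 ± 0.096 (adjusted p = 0.033) and Rpl23a with 0.27 ± 0.073 (adjusted p = 0.0052). Rps6 also passed, with an adjusted p of 0.0052. Rpl23a held 304, 358, 349.6 and 349 CPM under NRF and 413, 399, 412 and 416 CPM under DRF, without overlap, and 31 members were free of overlap in this direction, against 13.8% of all genes. Without NRF ZT12 replicate 1, the lowest library for these genes, the count was 4, and it was 11, 12 and 13 without DRF ZT12 replicates 1, 3 and 4. Without the NRF library the median difference was 0.10 log2. That library also had the highest sum of adipose markers, 348 CPM, and the part of this in the result was not tested.

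At ZT8 1 member passed, Rpl23, where 19.2% of all genes passed, 9.82% higher and 9.39% lower, although 29 members were free of overlap with DRF above, against 11.8% of all genes. The median was 0.14 log2. The ZT8 count was 0 without DRF ZT8 replicate 2 or 3 or NRF ZT8 replicate 1, 3 or 4. It was 2 without DRF ZT0 replicate 3 or DRF ZT16 replicate 1, 3 without DRF ZT8 replicate 4, NRF ZT4 replicate 1 or NRF ZT12 replicate 1, and 4 without NRF ZT4 replicate 2. At ZT16 3 members were higher, Rpl21 by 0.26 ± 0.070 log2 (SE, adjusted p = 0.016), Rpl23a by 0.26 ± 0.073 (adjusted p = 0.022) and Rpl12 by 0.23 ± 0.075 (adjusted p = 0.047), where 7.52% of all genes passed, 3.78% higher and 3.74% lower. Rpl23a held 420.2, 362, 364 and 378 CPM under NRF and 444, 427, 446 and 502 CPM under DRF at ZT16, without overlap. The ZT16 count was 6 without NRF ZT16 replicate 1, 1 without NRF ZT16 replicate 2 or 3 or DRF ZT16 replicate 3, and 0 without NRF ZT16 replicate 4 or DRF ZT16 replicate 4.

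At ZT20 no member passed and 2 had an unadjusted p under 0.05, where 21.4% of all genes passed, 9.72% higher and 11.6% lower (limma). The values ran from -0.40 log2 in Rpl36 to 0.14 in Rpl3, with a median of -0.03. The count was 2 without DRF ZT20 replicate 2 and at most 1 without any other single library. The difference of the effect between ZT20 and ZT4, tested after seeing the data, was below 0 and passed in 38 of 76 members, where 39% of all genes passed in either direction. Between ZT24 and ZT4 it was below 0 and passed in 24 members, where 37.1% of all genes passed in either direction. The share of all genes that passed below 0 was not counted for these contrasts.

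**Figure D5:**
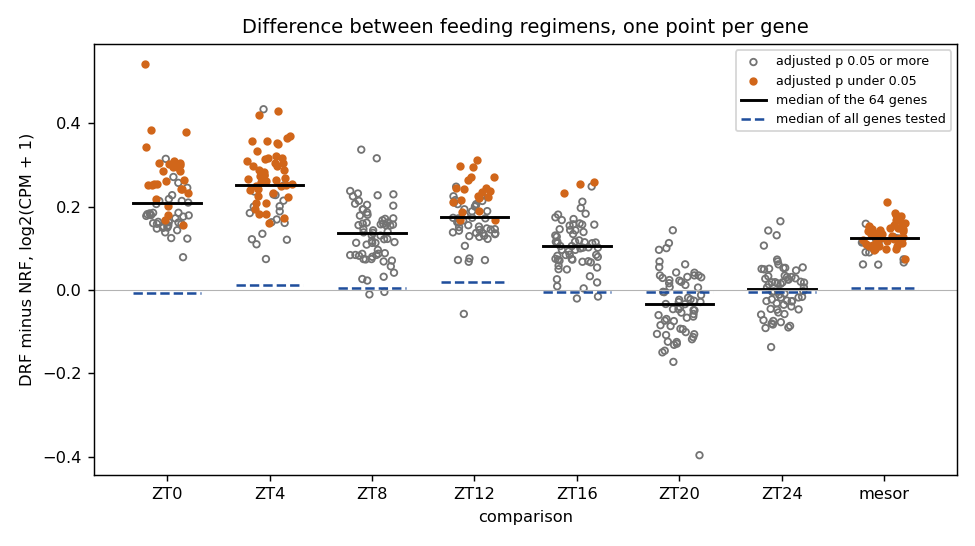
DRF minus NRF difference in log2(CPM + 1) of the 64 length-checked genes at each time point and for the mesor, with filled points for an adjusted p under 0.05, a solid line at their median and a dashed line at the median of all 12268 genes tested. The members' median falls from 0.25 at ZT4 to -0.03 at ZT20, while the median of all genes stays near 0.

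The groups at ZT4, ZT8, ZT16 and ZT20 were then set against each other, once by food and once by light. In both regimens the light groups were those at ZT4 and ZT8 and the dark groups those at ZT16 and ZT20. Light and time of day therefore cannot be told apart in the comparison by light. Fed mice (DRF at ZT4 and ZT8, NRF at ZT16 and ZT20) had higher levels than fasted mice in 16 of 76 members and lower levels in none, where 21.4% of all genes were higher and 18.7% lower. The median was 0.07 log2. The largest that passed were Rpl36 with 0.24 ± 0.091 log2 (SE, adjusted p = 0.033), Rps29 with 0.19 ± 0.074 (adjusted p = 0.039), Rps21 with 0.15 ± 0.054 (adjusted p = 0.027), Rpl11 with 0.14 ± 0.057 (adjusted p = 0.044) and Rps18 with 0.14 ± 0.048 (adjusted p = 0.016). The share of members that were higher was near the share of all genes. The count was 5 on the log2(TPM + 1) scale, for which the share of all genes is not given. It was 6 without DRF ZT20 replicate 4, NRF ZT4 replicate 1 or NRF ZT16 replicate 1, 8 without DRF ZT16 replicate 1 or NRF ZT20 replicate 4, 9 without DRF ZT4 replicate 1, DRF ZT8 replicate 2 or NRF ZT4 replicate 4, 10 without DRF ZT4 replicate 2 or 3, 30 without DRF ZT4 replicate 4 and 40 without NRF ZT4 replicate 2.

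In the light, 7 members were higher than in the dark, where 18.8% of all genes were higher, and 1, Rps6, was lower with an adjusted p of 0.039, where 18.8% were lower. The median was 0.05 log2. Among the largest of length-checked members that passed were Rps21 with 0.15 ± 0.054 log2 (SE, adjusted p = 0.026), Rpl19 with 0.14 ± 0.036 (adjusted p = 0.0019) and Rpl3 with 0.13 ± 0.027 (adjusted p = 0.00016). Rps21, Rpl19 and Rpl27 were among the 4 members that passed in both comparisons, and the share of all genes that did so was not counted. On the log2(TPM + 1) scale 49 members were higher in the light and none was lower, 28.2% of all genes were higher and 8.18% lower, and the median of all genes was 0.04 log2, so the light comparison depended on the scale. The count was 4 without NRF ZT4 replicate 2, 5 without DRF ZT16 replicate 1 or DRF ZT20 replicate 4, and 14 without NRF ZT4 replicate 1 or NRF ZT16 replicate 1.

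The stalk proteins, which recruit elongation factors to the ribosome, and a few other members were followed whatever their values. Rplp0, the base of the stalk, held 588, 691 and 779.6 CPM (lowest, median and highest library) under NRF and 632, 721 and 816 CPM under DRF. Its mesor was higher under DRF by 0.07 ± 0.024 log2 (SE, adjusted p = 0.045), the smallest of the differences that passed. Rplp1 had a mesor difference of 0.12 log2 with an adjusted p of 0.051, and Rplp2 passed with an adjusted p of 0.027. Rpsa, a small-subunit protein that is also known as a laminin receptor, held 529, 633 and 799 CPM under NRF and 536, 652 and 795 CPM under DRF, and its mesor difference of 0.06 log2 had an adjusted p of 0.21. Rpl10, which joins the large subunit late in the cytoplasm, had a mesor difference of 0.11 log2 (adjusted p = 0.034). Rps27a, which is made as a fusion with ubiquitin, had one of 0.13 log2 (adjusted p = 0.0030). Rpsa, Rplp1, Rps20 and Rpl28 were among the members that passed neither for the mesor nor at any single time point.

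Ribosomal proteins that the rule leaves out for their names were near the members. Of 8 tested, 4 had a higher mesor under DRF and none a lower one, with a median of 0.10 log2. These included Rps3a1 with 0.14 ± 0.024 log2 (SE, adjusted p = 5.2e-05), Fau, a fusion with a ubiquitin-like protein, with 0.14 ± 0.040 (adjusted p = 0.018) and Rack1, a scaffold on the small subunit, with 0.10 ± 0.027 (adjusted p = 0.013). Their reads, like those of Rpl36a and its paralog Rpl36al, can be shared with near-identical copies. Rpl36al had an NRF rhythm that peaked at ZT20.9 (adjusted p = 0.0019), and the adjusted p of the NRF rhythm of Rpl36a was 0.90. The difference between the paralogs was not tested.

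Other genes of translation are given beside the shares of all genes, which were 54.5% for the NRF rhythm, 40.7% for the DRF rhythm, 5.25% for a higher mesor under DRF, 21.4% for higher and 18.7% for lower levels in fed mice. Of 23 other genes with TOP mRNAs, such as elongation factors, 16 were rhythmic under NRF and 7 under DRF, and 9 had a higher mesor under DRF with none lower. Tpt1, the translationally controlled tumour protein, had a mesor difference of 0.21 ± 0.034 log2 (SE, adjusted p = 5.0e-05) and Eef1b2 one of 0.13 ± 0.022 (adjusted p = 0.00012). Eef2, the translocase, was rhythmic under NRF with an amplitude of 0.16 log2 and a peak at ZT10.6, and was lower in fed than in fasted mice by 0.12 log2 (adjusted p = 0.0037). Eif4b, a cofactor of the helicase Eif4a1, had an NRF amplitude of 0.40 log2 with a peak at ZT8.8. Of 27 regulators of mTORC1 and TOP translation, 17 were rhythmic under NRF and 12 under DRF, and in fed mice 8 were higher and 5 lower. Larp1 was rhythmic under NRF with a peak at ZT19.7 (adjusted p = 0.00040), and Deptor, an inhibitor of mTOR, was lower in fed mice by 0.36 log2 (adjusted p = 2.3e-11).

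Of 56 genes of ribosome biogenesis, 33 were rhythmic under NRF and 18 under DRF, 28 were higher and 2 lower in fed mice, and 7 had a higher mesor under DRF, with a median of 0.03 log2. Of 73 mitochondrial ribosomal protein genes, 27 were rhythmic under NRF and 51 under DRF, 40 were higher and none lower in fed mice, and 15 had a higher mesor. Of 70 subunits of oxidative phosphorylation, 17 were rhythmic under NRF and 8 under DRF, and 45 had a higher mesor under DRF with none lower. Their median mesor difference was 0.12 log2, and their median per library correlated with that of the cytosolic ribosomal proteins with r = 0.86 over 56 libraries. The corresponding r was 0.83 for the mitochondrial ribosomal proteins, 0.53 for the other TOP mRNAs and 0.36 for ribosome biogenesis.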

How the data were processed

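Poly(A) RNA from 56 mouse kidneys had been sequenced on a BGISEQ-500. Per the submitters' processing notes HISAT2, Bowtie2 and RSEM were used, with the builds mm10 and GRCm38.p6 and no versions given. The deposited values, named TPM by the authors, behaved as a score: log2(CPM + 1) divided by gene length and scaled to a fixed sum per library. This differed from the linear unit planned for. CPM was recovered from the steps that whole reads leave, with a tolerance of 0.05 reads. The length of 15740 genes (92.4%) could be checked, and 98.0% of their nonzero values came out whole. Entrez identifiers were matched to RefSeq symbols for 16929 of 17027 genes. The library strand setting is not given in the sources used here.

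log2(CPM + 1) of 12268 genes with a mean CPM of at least 1 was fitted with limma 3.58.1 (trend, empirical Bayes) in R 4.3.3. Genes with an unchecked length were left out unless they were members, so the 12 such members were tested. For these 12 the filter and the place on the trend rest on the unchecked length. All 14 groups shared 1 estimate of the spread for regimen comparisons, and cosines were fitted within regimens. P-values were adjusted by Benjamini-Hochberg over all genes, with a threshold of 0.05. Separate mice were sampled at each time. The steps were tested on simulated data. Alternatives were TPM scale, size factors, pseudocount, filters, threshold, replicate block, length trends, times left out and libraries left out. Any member could be named. For each comparison up to 5 members with the largest changes or amplitudes past the threshold were given in full, with the 3 highest and 3 lowest levels, the stalk genes, Rpsa, Rps6, Rpl10 and Rps27a. Other genes came from fixed lists. Members and lists were chosen with earlier results of these data known. Some genes among those that the rule would name are not reported here.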

Additional observations from a re-analysis of the deposited data

Results flagged for a closer look

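Samples far from the other 3 of their group were looked for in 406 combinations of a group with a named member or a library summary. By Dixon's criterion 31 were found, where chance gives about 1 in 20 for a single combination. The members moved together within a library, so the combinations are not independent and the 31 cannot be weighed against that rate. In NRF ZT12 replicate 1 the values were low: a summed share of 1.47% of CPM, a median deviation of -0.35 log2, and CPM of 180.4 for Rpl11, 324 for Rpl21, 304 for Rpl23a, 172 for Rpl35, 67.0 for Rpl38, 90.9 for Rps13, 206 for Rps27 and 150.4 for Rps27a. In NRF ZT16 replicate 1 they were high: a share of 1.995%, a median deviation of 0.13 log2, and CPM of 123 for Rpl36a, 297 for Rplp1, 181 for Rps18, 121 for Rps21 and 709 for Rpsa. These libraries also had the highest sums of adipose markers, 348 and 283 CPM, whose part in these values was not tested.

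In DRF ZT4 replicate 4 the share was low at 1.87%, with 423 CPM for Rpl3, 256 for Rplp1 and 671 for Rpsa. DRF ZT8 replicate 4 was low for Rps2 at 769 CPM, and replicate 1 for Rps27 at 214 CPM. DRF ZT12 replicate 1 was high for Rps13 at 126 CPM, and DRF ZT24 replicate 3 for Rpl10 at 625 CPM and Rps29 at 125 CPM. NRF ZT0 replicate 4 was high for Rpl38 at 96.3 CPM and Rps21 at 109 CPM. NRF ZT8 replicate 4 was high for Rpl36a at 128 CPM. NRF ZT16 replicate 4 was low for Rps27 at 223 CPM, and the NRF ZT24 library whose number no sample label has was low for Rps2 at 770.0 CPM.

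The 24-h rhythm differed between regimens in 9 members by the limma interaction, where 49.8% of all genes passed, with adjusted p of 0.00093 for Rpl3, 0.015 for Rpl19, 0.017 for Rpl27, 0.021 for Rps6, 0.028 for Rps13, 0.029 for Rps18, 0.034 for Rpl18, 0.045 for Rpl8 and 0.046 for Rplp2. Comparisons of the DRF minus NRF difference between times were chosen after seeing the data, in which the members' median was largest at ZT4 and smallest at ZT20. The difference was lower at ZT20 than at ZT4 in 38 of 76 members, where 39% of all genes passed in either direction. It was lower at ZT24 than at ZT4 in 24 members, where 37.1% of all genes passed in either direction. The share of all genes in this direction alone was not counted.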

How the results depend on the processing

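Of the alternative values for named members, 738 kept their side of the threshold, 171 lost and 4 gained the call. No level difference that passed in the main fit reversed its sign. Signs were not compared for members that had not passed. Rhythms, 12-h components and interactions had no sign to compare, and shifts of their peaks were not counted. The threshold of 0.01 used the main fit, so it could not change a sign. Shares of all genes under the alternatives are not listed in this section. Counts of members that moved by over 1.5 times were as follows. At an adjusted p of 0.01 the mesor had 34, ZT4 23, ZT0 9, ZT12 5, and ZT8 and ZT16 0, with 1 for fed against fasted, 3 for light against dark, 1 for the NRF and 3 for the DRF rhythm, 1 for the interaction and 4 for the 12-h component under DRF. On the log2(TPM + 1) scale they were 4 at ZT20, 5 for fed, 49 for light, 7 for the NRF and 28 for the DRF rhythm, 3 for the interaction and 10 for the 12-h component. With the deposited values taken as linear TPM they were 4 at ZT8, 36 at ZT12 and 19 for the interaction. A mean CPM of at least 5 or median-of-ratios scaling gave 1 at ZT20. Removing the trend with gene length gave 2 at ZT8, 6 at ZT16, 1 at ZT20 and 2 at ZT24, and removing that with mRNA length and GC content gave 2, 1 and 1 at ZT8, ZT20 and ZT24. Without ZT0 the counts were 28 for the mesor, 4 for the NRF and 11 for the DRF rhythm, and without ZT24 they were 10 for the DRF rhythm, 4 for the interaction and 11 for the 12-h component. Without the unnumbered NRF ZT24 library they were 2 at ZT8 and 1 at ZT24.

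Leaving out 1 library, or 1 replicate number from every group, gave 2 to 3 members for the NRF and 2 to 30 for the DRF rhythm, 1 to 27 for the interaction, 4 to 35 for the 12-h component under DRF, 14 to 71 for the mesor, 4 to 72 at ZT4, 6 to 37 at ZT0, 1 to 27 at ZT12, 0 to 9 at ZT16, 0 to 4 at ZT8, 0 to 2 at ZT20, 0 to 1 at ZT24, 1 to 40 for fed and 1 to 25 for light. The mesor count of 14 was without replicate 3 of every group. Deviations of same-numbered libraries had a median correlation of 0.0015 over 351 pairs, and differently numbered ones 0.0030 over 1105 pairs. Single pairs ran from -0.80 to 0.77 and from -0.76 to 0.84. The medians thus showed no pairing by replicate number across the groups, but they cannot show whether some groups were paired. The replicate block gave 54 members for the mesor and 1 at ZT24. The causes of these moves were not tested.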
